A study of Xenopus laevis with 32 samples.

Results

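The translation initiation factors are the proteins that bring the small ribosomal subunit, the initiator tRNA and an mRNA together at a start codon. Their genes were taken here by name, as every row whose gene name, in lower case, starts with eif and a digit of the initiation factor series (eif1 to eif6), with eif4enif1 left out. This rule found 83 names among the 18118 names of the 3 deposited tables. The table of polysome shares held 41 of its 6497 genes under this rule, the table of RNA levels 70 of 11943 and the table of poly(A) sites 69 of 13216. All 3 tables shared 28 of these names. By factor, the 41 share rows were 4 of eif1, 2 of the eIF2 subunits, 3 of eif2b, 2 eIF2 kinases, 3 of eif2a or eif2d, 10 of eif3, 6 of eif4a, eif4b, eif4g or eif4h, 6 of eif4e or eif4ebp, 2 of eif5b-like, 2 of eif5a and 1 of eif6.

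The samples were oocytes of the frog Xenopus laevis, in 5 groups along meiotic maturation. Stage VI oocytes, grown but untreated, were the starting point, PG90 oocytes were taken 90 minutes after progesterone (the hormone that starts maturation), and MI, interkinesis and MII oocytes stood at meiosis I, at the pause that follows it, and at meiosis II. Polyadenylated RNA was sequenced from 3 sucrose gradient fractions (mRNP, monosome and polysome) in 30 libraries, and PAS-seq, which reads the 3' ends of polyadenylated RNA, was run in 2 lanes on stage VI oocytes. The tables give each stage in 2 columns, with the suffixes x and y, and the labels do not say how many oocytes or frogs went into each, so the tests below measure the spread between these columns.

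Initiation is known in outline. eIF2 carries the initiator tRNA, and eIF1, eIF1A and eIF3 hold the small subunit open while it scans. eIF4E binds the cap, eIF4G is the scaffold and eIF4A the helicase. In oocytes, stored mRNAs are kept silent partly by short poly(A) tails and by proteins that keep eIF4E from eIF4G, and progesterone is known to start the release of some of them. Many frog genes have an L and an S copy, or homeologs, from the 2 subgenomes, and a suffix in the gene name marks the copy. How reads that match both copies were assigned is not given in the sources used here, so values of near-identical copies are uncertain.

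The polysome share is the authors' fraction for a gene and a stage. Polysomes are mRNAs that carry several ribosomes. Neither the total that the share refers to nor the depth behind it is given in the sources used here. At MII the median share was 0.271 over the 41 initiation factor rows and 0.254 over all genes, and at stage VI it was 0.35 over the 41 rows and 0.329 over all genes. Between the columns x and y of a stage, the median SD over the 41 rows lay between 0.0459 and 0.0578. Because the scaling between columns is not given, changes below are also set against the median gene, whose log2 odds, log2(share / (1 - share)), moved by -0.57 between stage VI and MII. Of 22 oocyte marker genes, 19 were listed in the table of RNA levels, with summed levels over the 5 stages of 12640 to 19690 in column set x and 3999 to 5994 in y. Of 21 genes taken as markers of other ovary cells only cyp17a1 was listed, at 44.6 to 49.9 in x and 8.36 to 13.5 in y. Whether its RNA came from the oocytes or from other cells cannot be told here. A gene that is not listed may also have been filtered out or named otherwise.

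**Figure D1:**
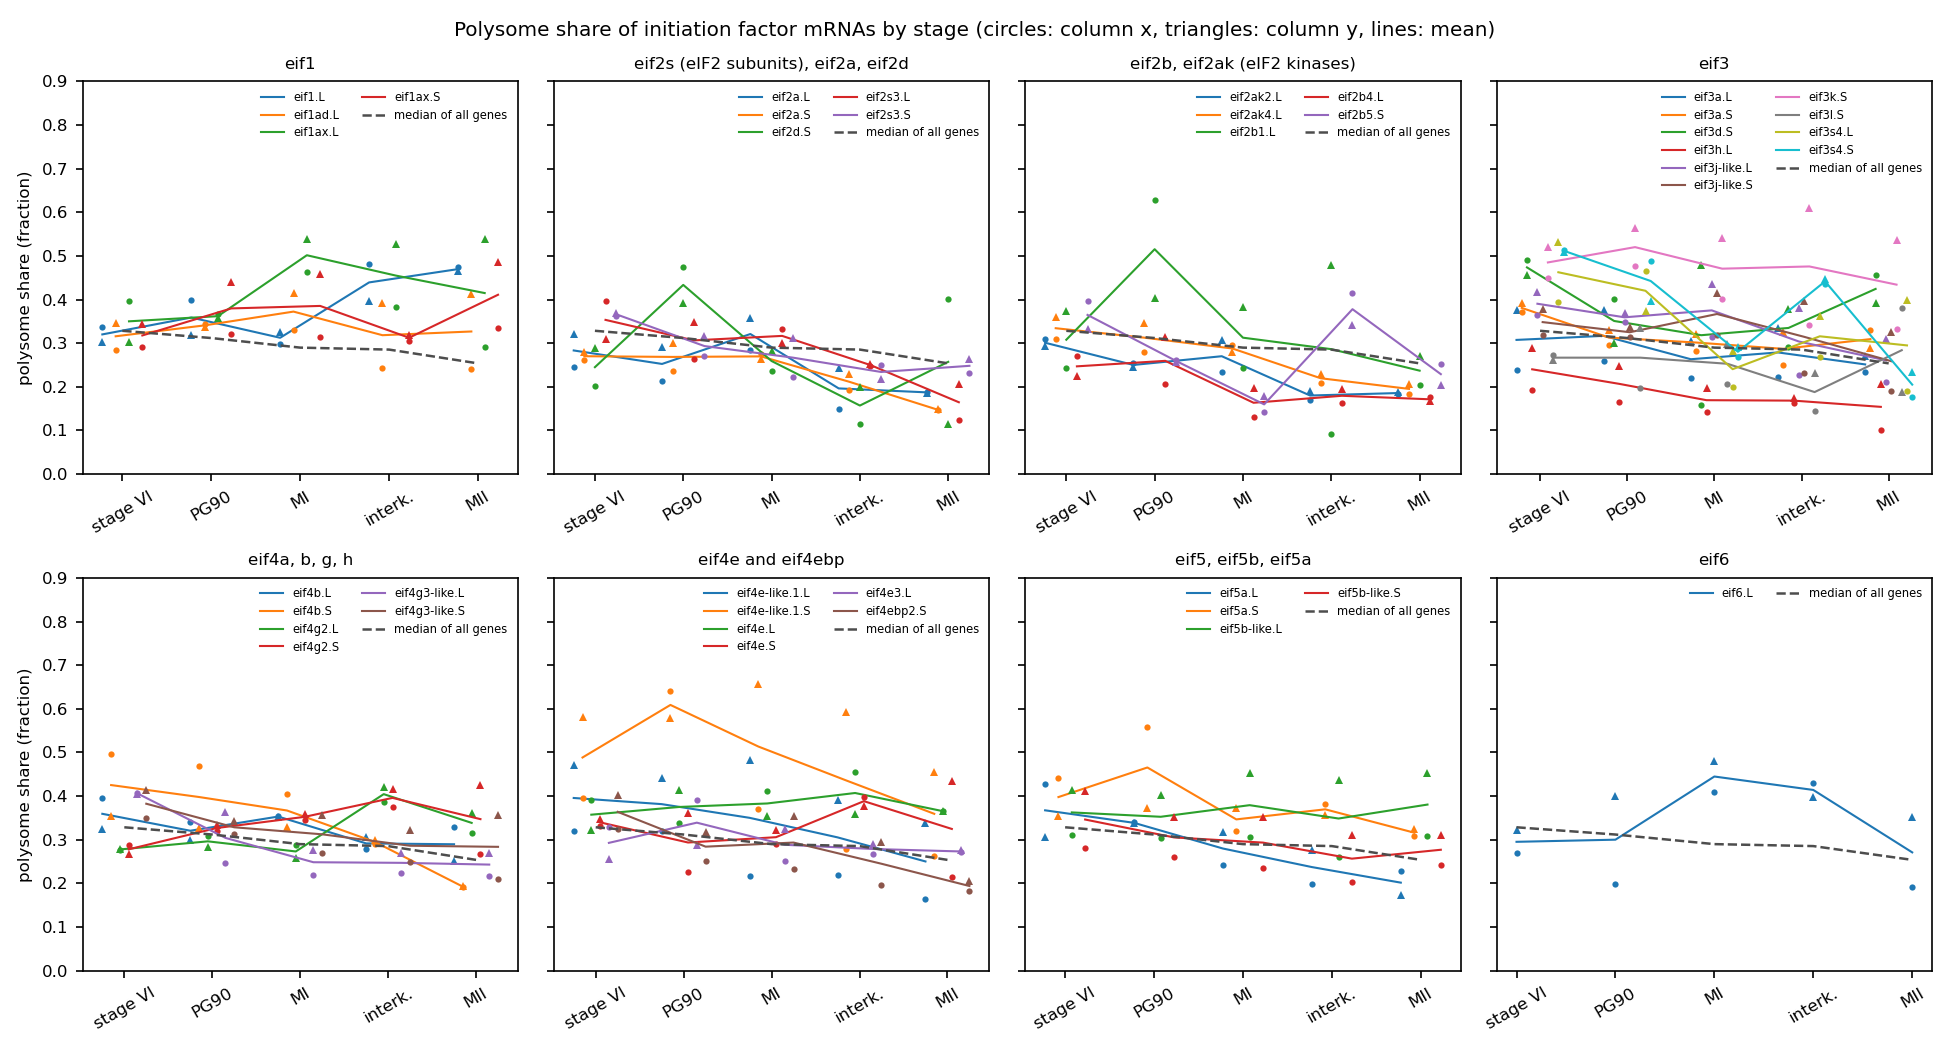
Polysome share (fraction, y axis) of the 41 initiation factor rows at the 5 stages (x axis), in panels by factor. Circles are column x, triangles column y and lines the mean of both; the dashed line is the median of all genes, and eif1.L ends at a mean of 0.470 while eif3s4.S ends at 0.205.

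The main question of these columns is which mRNAs changed their association with polysomes during maturation. At MII, 2 of the 41 initiation factor mRNAs passed the threshold below stage VI, the eIF3 subunit eif3s4.S and the eIF2 subunit eif2s3.L, and 0 passed above it. In limma with Benjamini-Hochberg adjustment over all genes, an adjusted p under 0.05 was reached by 3.82% of all genes in the lower direction and by 0.554% in the higher one, beside 4.88% and 0% of the initiation factor rows. The median change was -0.51 for the 41 rows and -0.57 for all genes, and 20 of the 41 rows lay below the change of the median gene. At an unadjusted p under 0.05 there were 12 of the 41 rows (29.3%), beside 32.7% of all genes. Counted without a test, 16 of the 41 rows (39.0%) had both MII columns below both stage VI columns, beside 53.5% of all genes. In 2 rows (4.88%), eif1.L and eif4g2.L, both MII columns lay above both stage VI columns, beside 9.37% of all genes. Centring on the median gave 9 lower and 7 higher rows in place of 16 and 2. The counts over all genes after centring were not computed, so the centred counts have no background here.

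The calls of these mRNAs ended under several other settings. With each column centred on its median 0 members were called, with quantile normalization or a constant prior variance 1 was, and the count was 0 when either stage VI column (x or y) was left out and 0 when the MII column x was. Scaling also turned the balance over all genes, with 44 higher and 10 lower calls after quantile normalization and 107 higher and 20 lower after median-centring, beside 36 higher and 248 lower as deposited. With the column set as a block 11 of the 41 rows were called, all lower, beside 25.5% of all genes called in either direction.

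At PG90, MI and interkinesis, 0 of the 41 rows and 0% of all genes passed at an adjusted p under 0.05 in limma. At an unadjusted p under 0.05 there were 0 rows at PG90 (0.908% of all genes), 4 rows at MI (9.76%, beside 11.7% of all genes) and 6 rows at interkinesis (14.6%, beside 16.0%). The 4 rows at MI were eif2b5.S, eif3s4.L, eif3s4.S and eif4g3-like.L, all lower than at stage VI. For the 41 rows the median change from stage VI came to -0.15 (PG90), -0.23 (MI) and -0.51 (interkinesis), beside -0.12, -0.29 and -0.33 for all genes. At interkinesis, 20 of the 41 rows had both columns below both stage VI columns (48.8%, beside 41.0% of all genes) and 5 had both above (12.2%, beside 12.4%). Those 5 were eif1.L, eif4e.S, eif4g2.L, eif4g2.S and eif6.L. Centring on the median gave 12 lower and 8 higher rows in place of 20 and 5, again without a count over all genes. All 4 contrasts share the stage VI columns.

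**Figure D2:**
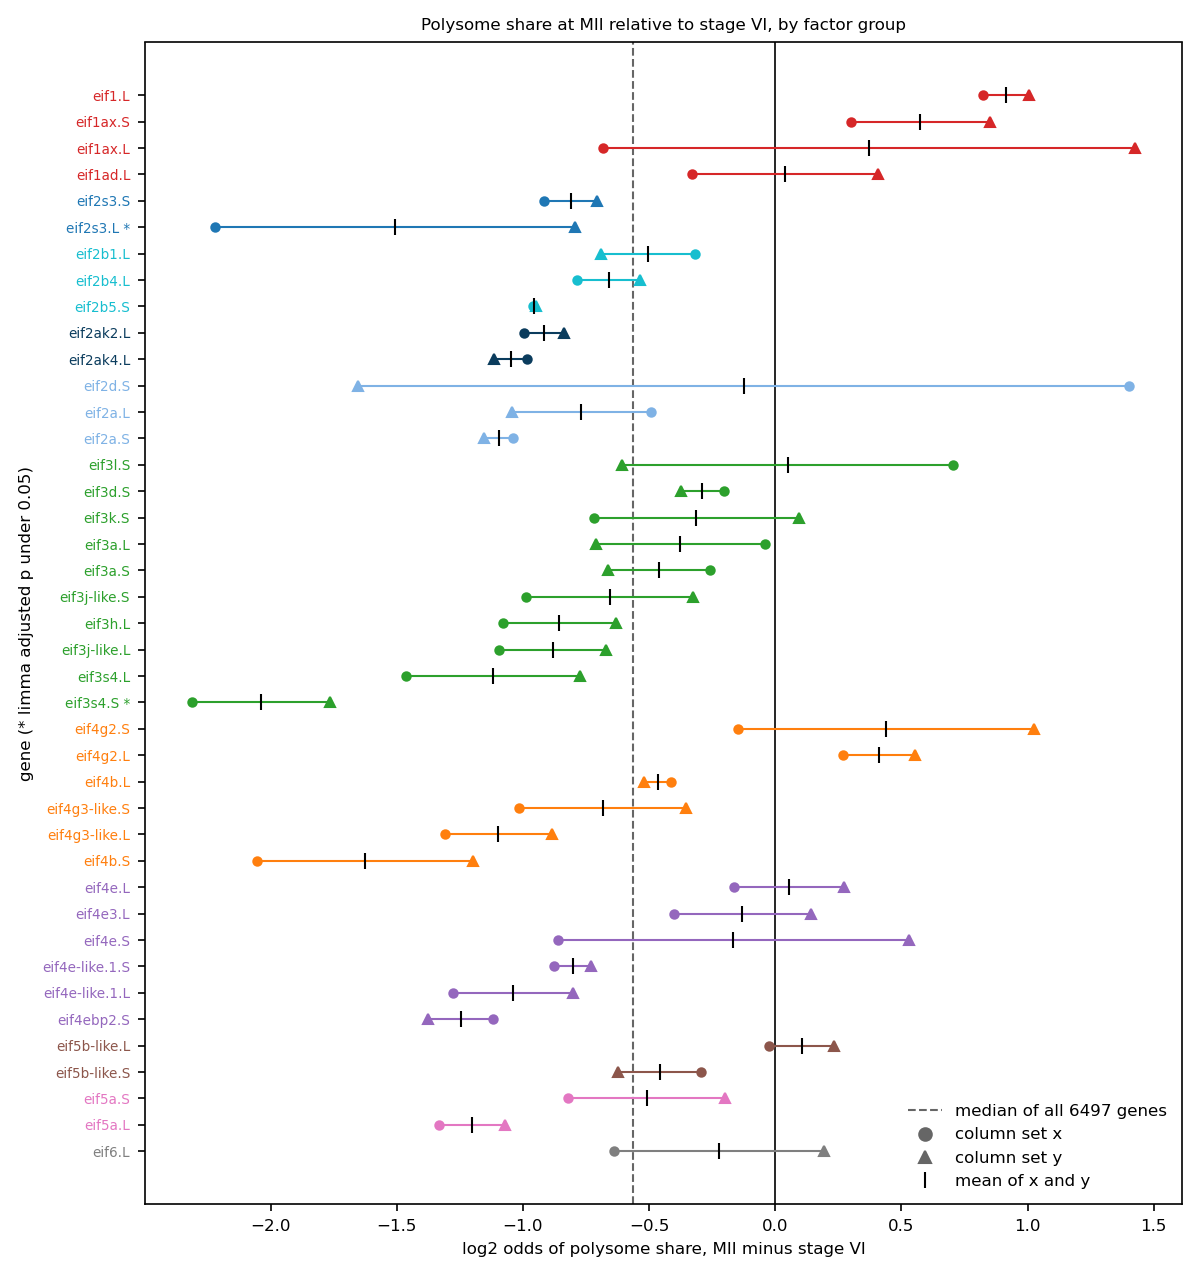
Change in log2 odds of the polysome share, MII minus stage VI (x axis), for each of the 41 rows (y axis), coloured by factor. Circles and triangles are column sets x and y, black ticks their mean, and the dashed line the median of all genes at -0.57; the eif1 rows have means above 0 and eif3s4.S lies farthest left at -2.04.

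The eif1 group holds the genes of eIF1 and eIF1A, which keep the scanning subunit in an open form and check the start codon. eif1ad.L was placed in the group by its name. eif1.L codes for eIF1. Column x gave shares for eif1.L of 0.338 in stage VI, 0.40 in PG90, 0.299 in MI, 0.481 in interkinesis and 0.475 in MII oocytes. In column y its shares were 0.302, 0.318, 0.326, 0.398 and 0.465 at the same stages. Both columns at interkinesis and at MII were above both at stage VI, and the difference between columns at MII was smaller than the difference between the stages. Its mean was 0.470 ± 0.00731 at MII and 0.320 ± 0.0255 at stage VI (SD, n = 2 each), a change of 0.91 in log2 odds (SE 0.402, limma adjusted p = 0.141), or 1.48 relative to the median gene. It did not pass the threshold.

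The copies of eif1ax code for eIF1A. The shares of eif1ax.L in column x were 0.397 in stage VI, 0.366 in PG90, 0.464 in MI, 0.383 in interkinesis and 0.291 in MII oocytes. Those of eif1ax.L in column y were 0.303, 0.358, 0.539, 0.527 and 0.539. The columns thus went in opposite directions at MII, and the mean change of 0.37 (SE 0.552, limma adjusted p = 0.643) became -0.38 without the MII column y. For eif1ax.S the shares were 0.335 in x and 0.487 in y at MII, against 0.291 in x and 0.345 in y at stage VI. Its change was 0.58 (SE 0.471, limma adjusted p = 0.390), and its lower MII column lay within the stage VI range. For eif1ad.L, which codes for a protein with an eIF1A-like domain, the shares were 0.240 and 0.414 at MII, against 0.285 and 0.347 at stage VI. The 4 rows of the group had a median change of 0.47, of -0.02 in column set x and 0.93 in y, and all 4 changes were above that of the median gene at each of the 4 later stages.

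eIF2 has 3 subunits, of which the gamma subunit, coded by eif2s3, binds the initiator tRNA and GTP. The shares of eif2s3.L in column x were 0.397 in stage VI, 0.265 in PG90, 0.333 in MI, 0.247 in interkinesis and 0.124 in MII oocytes. Column y held 0.310, 0.348, 0.301, 0.253 and 0.206 for eif2s3.L. Both MII columns were the lowest of their set. The mean was 0.165 ± 0.0580 at MII and 0.354 ± 0.0615 at stage VI (SD, n = 2 each), and the row fell by 1.51 in log2 odds (SE 0.374, limma adjusted p = 0.0470). Relative to the median gene the change was -0.94, and with each column centred on its median the adjusted p in limma was 0.139.

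Its S copy was lower by a smaller amount. In eif2s3.S the shares were 0.232 in x and 0.264 in y at MII, against 0.363 in x and 0.370 in y at stage VI. The columns did not overlap, and the change was -0.81 (SE 0.332, limma adjusted p = 0.120). The 2 rows of eif2a, which codes for a tRNA-binding protein that is not a subunit of eIF2, had low shares from the start. For eif2a.S the shares were 0.147 in x and 0.148 in y at MII, the lowest mean share of the 41 rows at that stage, against 0.261 in x and 0.279 in y at stage VI. The change of eif2a.S was -1.10 (SE 0.301, limma adjusted p = 0.0549). eif2a.L had 0.188 and 0.186 at MII, against 0.246 and 0.321 at stage VI. For eif2d.S, another tRNA-binding protein, the columns disagreed, with 0.40 in x and 0.114 in y at MII, against 0.202 in x and 0.288 in y at stage VI.

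eIF2B recharges eIF2 with GTP, and the eIF2 kinases block that step by phosphorylating the alpha subunit of eIF2. Rows were listed for the catalytic eIF2B subunit, eif2b5.S, and for the subunits eif2b1.L and eif2b4.L. The shares of eif2b5.S were 0.253 and 0.205 at MII, against 0.397 and 0.333 at stage VI, with a difference in log2 odds of -0.95 (SE 0.327, limma adjusted p = 0.0825). The row moved back and forth along the way, with 0.142 and 0.178 at MI and 0.415 and 0.341 at interkinesis. eif2b4.L was at 0.176 and 0.167 at MII, against 0.270 and 0.224 at stage VI. In eif2b1.L the columns were far apart at interkinesis, 0.0924 in x and 0.480 in y, so that its shares of 0.205 and 0.270 at MII, against 0.243 and 0.373 at stage VI, lay within the spread between its columns.

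Both kinase rows were lower at MII by similar amounts in x and y. eif2ak2.L codes for the kinase known in mammals as PKR, which responds to double-stranded RNA. Its shares were 0.184 and 0.188 at MII, against 0.310 and 0.293 at stage VI, with a difference in log2 odds of -0.92 (SE 0.30, limma adjusted p = 0.0747). eif2ak4.L codes for GCN2, which responds to uncharged tRNA. Its shares were 0.184 and 0.206 at MII, against 0.309 and 0.360 at stage VI, with a difference in log2 odds of -1.05 (SE 0.307, limma adjusted p = 0.0614). Blocking on column set, 25.5% of all genes passed in limma. Among them were eif2b5.S, eif2ak2.L, eif2ak4.L and eif2a.S, at adjusted p-values of 0.0370, 0.0312, 0.0216 and 0.0201. Under other settings that kept all columns, their limma adjusted p reached 0.532, 0.694, 0.376 and 0.455. Relative to the median gene their changes at MII were -0.39, -0.35, -0.48 and -0.53.

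eIF3 is the largest initiation factor, a scaffold of many subunits on the small ribosomal subunit, and its 10 rows spread over a wide range of shares. The highest at stage VI were eif3s4.S with a mean of 0.512 and eif3k.S with 0.485, and the lowest were eif3h.L with 0.240 and eif3l.S with 0.267. In the RefSeq table for assembly Xenopus_laevis_v10.1, eif3s4 is an older symbol of eif3g, which codes for a subunit with an RNA recognition motif. For eif3s4.S column x held 0.514 in stage VI, 0.490 in PG90, 0.269 in MI, 0.437 in interkinesis and 0.176 in MII oocytes. Its column y held 0.510, 0.396, 0.291, 0.447 and 0.234. Both columns were low at MI, higher at interkinesis and lowest at MII. The mean was 0.205 ± 0.0414 at MII and 0.512 ± 0.00310 at stage VI (SD, n = 2 each), and the row fell by 2.04 in log2 odds (SE 0.394, limma adjusted p = 0.0388). Relative to the median gene the change was -1.47, with a limma adjusted p of 0.0558 after median-centring and values from 0.0426 to 0.251 with a column left out.

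The L copy moved less evenly. For eif3s4.L the shares were 0.191 in x and 0.399 in y at MII, against 0.394 in x and 0.532 in y at stage VI. Its MII column y lay above the stage VI column x, and the change was -1.12 (SE 0.532, limma adjusted p = 0.165). eif3k.S, a small non-core subunit, was among the highest rows throughout, with 0.332 and 0.537 at MII, against 0.450 and 0.521 at stage VI. eif3h.L was the lowest of the group, with 0.101 and 0.207 at MII, against 0.192 and 0.288 at stage VI. In eif3l.S the columns went apart, with 0.380 in x and 0.188 in y at MII, against 0.273 in x and 0.261 in y at stage VI. Of the 10 rows, 9 had a mean change below 0 at MII, and their median was -0.56, as many lying above as below the change of the median gene.

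The genes of eIF4A, eIF4B, eIF4G and eIF4H serve the unwinding of the 5' end of the mRNA and the bridge between the cap and the ribosome. Of the 6 share rows, the 4 of eif4b and eif4g3-like had mean changes below 0 at MII and the 2 of eif4g2 above 0, and 0 passed in limma. eif4b.S codes for eIF4B, which stimulates the helicase eIF4A. Column x had shares for eif4b.S of 0.496 in stage VI, 0.469 in PG90, 0.405 in MI, 0.290 in interkinesis and 0.192 in MII oocytes. Column y of eif4b.S held 0.355, 0.327, 0.329, 0.30 and 0.193. The columns were apart at stage VI and met at MII. The mean was 0.192 ± 0.00134 at MII and 0.425 ± 0.0999 at stage VI (SD, n = 2 each), with a change of -1.63 (SE 0.421, limma adjusted p = 0.0508). Blocking on column set, that row passed (limma adjusted p = 0.0183), as did 25.5% of all genes. Under other settings that kept all columns its limma adjusted p reached 0.201. With a column left out its change lay between -2.05 and -1.21. Relative to the median gene its change was -1.06. Its L copy had 0.329 and 0.251 at MII, against 0.395 and 0.324 at stage VI.

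eif4g3-like.L belongs by name to the eIF4G scaffold family. Its shares were 0.217 and 0.269 at MII, against 0.408 and 0.404 at stage VI, with a difference in log2 odds of -1.10 (SE 0.364, limma adjusted p = 0.0765). The block brought eif4g3-like.L past the threshold (limma adjusted p = 0.0246), where 25.5% of all genes passed. Relative to the median gene its change was -0.53. The share of eif4g3-like.S was 0.211 and 0.356 at MII, against 0.351 and 0.414 at stage VI. eif4g2 codes for a shorter relative of eIF4G, known in mammals as DAP5, that does not bind eIF4E. Shares of eif4g2.L in column x were 0.277 in stage VI, 0.309 in PG90, 0.289 in MI, 0.387 in interkinesis and 0.316 in MII oocytes. In y the shares of eif4g2.L were 0.278, 0.283, 0.257, 0.422 and 0.361. Both columns of eif4g2.L peaked at interkinesis, and both at MII lay above both at stage VI, with a change at MII of 0.41 (SE 0.330, limma adjusted p = 0.381), or 0.98 relative to the median gene. The S copy had 0.376 and 0.416 at interkinesis and 0.268 and 0.426 at MII, against 0.288 and 0.268 at stage VI. Its change at MII of 0.44 (SE 0.402, limma adjusted p = 0.442) became -0.072 without the MII column y.

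eIF4E is the cap-binding protein, and the eIF4E-binding proteins (eif4ebp) are repressors that occupy its eIF4G site. eif4e.L stayed near its starting share, with 0.365 in x and 0.366 in y at MII, against 0.391 in x and 0.323 in y at stage VI. Its change of 0.05 (SE 0.414, limma adjusted p = 0.933) became -0.16 without the stage VI column y. For eif4e.S the shares were 0.215 and 0.434 at MII, against 0.333 and 0.347 at stage VI, with the columns moving in opposite directions. RefSeq lists eif4e as a synonym of eif4e1b.S, so this row may be the eIF4E1b copy, a cap-binding relative known from oocytes. eif4e3.L, a further relative, had 0.271 and 0.275 at MII, against 0.329 and 0.256 at stage VI. The repressor row, eif4ebp2.S, had 0.182 and 0.206 at MII, against 0.325 and 0.403 at stage VI. Its columns did not overlap, and the change was -1.25 (SE 0.396, limma adjusted p = 0.0695), or -0.68 relative to the median gene. With the column set as a block it passed (limma adjusted p = 0.0181), as did 25.5% of all genes. The rows named eif4e-like.1 had the highest S copy of the group, at 0.263 and 0.456 at MII, against 0.395 and 0.582 at stage VI, and an L copy at 0.163 and 0.337 at MII, against 0.321 and 0.470 at stage VI. Under the block the L copy was among the 11 rows called lower.

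The last factors act at and after start codon choice. eIF5B joins the ribosomal subunits, eIF5A helps the ribosome through difficult stretches and termination, and eIF6 keeps the large subunit from joining too early. The L copy of eif5b-like had 0.307 and 0.454 at MII, against 0.311 and 0.414 at stage VI, and the S copy had 0.242 and 0.312 at MII, against 0.281 and 0.411 at stage VI. For eif5a.L the shares were 0.229 and 0.174 at MII, against 0.429 and 0.306 at stage VI, with columns that did not overlap. The difference in log2 odds was -1.20 (SE 0.382, limma adjusted p = 0.0695), or -0.64 relative to the median gene. The row passed under the block (limma adjusted p = 0.0404), as did 25.5% of all genes. eif5a.S had 0.308 and 0.324 at MII, against 0.440 and 0.355 at stage VI. eif6.L had its highest mean shares at MI and interkinesis. Its shares in column x were 0.269 in stage VI, 0.199 in PG90, 0.409 in MI, 0.429 in interkinesis and 0.191 in MII oocytes, and in column y 0.322, 0.401, 0.481, 0.399 and 0.351. Both columns at MI and at interkinesis were above both at stage VI. The changes were 0.94 at MI (SE 0.524, limma adjusted p = 0.474) and 0.76 at interkinesis (SE 0.524, limma adjusted p = 0.453), and neither passed. At interkinesis 12.4% of all genes had both columns above, and for MI that percentage is not given here.

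Lists of genes of the translation machinery were set beside these changes. Over all genes the median change at MII was -0.57, and 3.82% passed in limma lower and 0.554% higher. Initiation partners and regulators, such as poly(A)-binding proteins, cap-complex regulators and helicases, had 30 rows with a median change of -0.67 at MII, and 0 passed in limma. The 7 rows of eif2a, eif2s3, eif3h and eif4b, genes that belong in human to the mRNAs with a 5' terminal oligopyrimidine tract, had a median of -0.86 and 6 of 7 lay below the median gene. The 3 elongation factor rows had a median of -0.93. The 44 ribosomal protein rows, in human the main carriers of that tract, had a median of -1.32. In limma 15 of the 44 passed, all lower, beside 3.82% of all genes in that direction. Over all genes, only 10 lower calls were left after quantile normalization and 20 after median-centring. Not all 15 can therefore stand under quantile normalization, and how many did under either setting was not counted. Whether the frog mRNAs carry a 5' terminal oligopyrimidine tract was not examined. A role of the tract in these changes was not tested. The initiation factor row with the largest fall at MII, eif3s4.S at -2.04, is not among the 7 rows listed by the human tract.

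Where both homeologs were listed, the copies of a gene were compared within each column, which takes out scaling between columns. This gave 13 pairs of initiation factor genes over 10 columns (5 stages in x and y), and limma tested the mean of the 5 stage differences against 0. The columns of a stage are its replicates here, and those of different stages share a gene's own sequence and read assignment. At an adjusted p under 0.05, 3 of the 13 pairs (23.1%) differed between L and S, beside 32.5% of the 1299 pairs in the table. The L copy was lower in 2 and higher in 1.

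**Figure D3:**
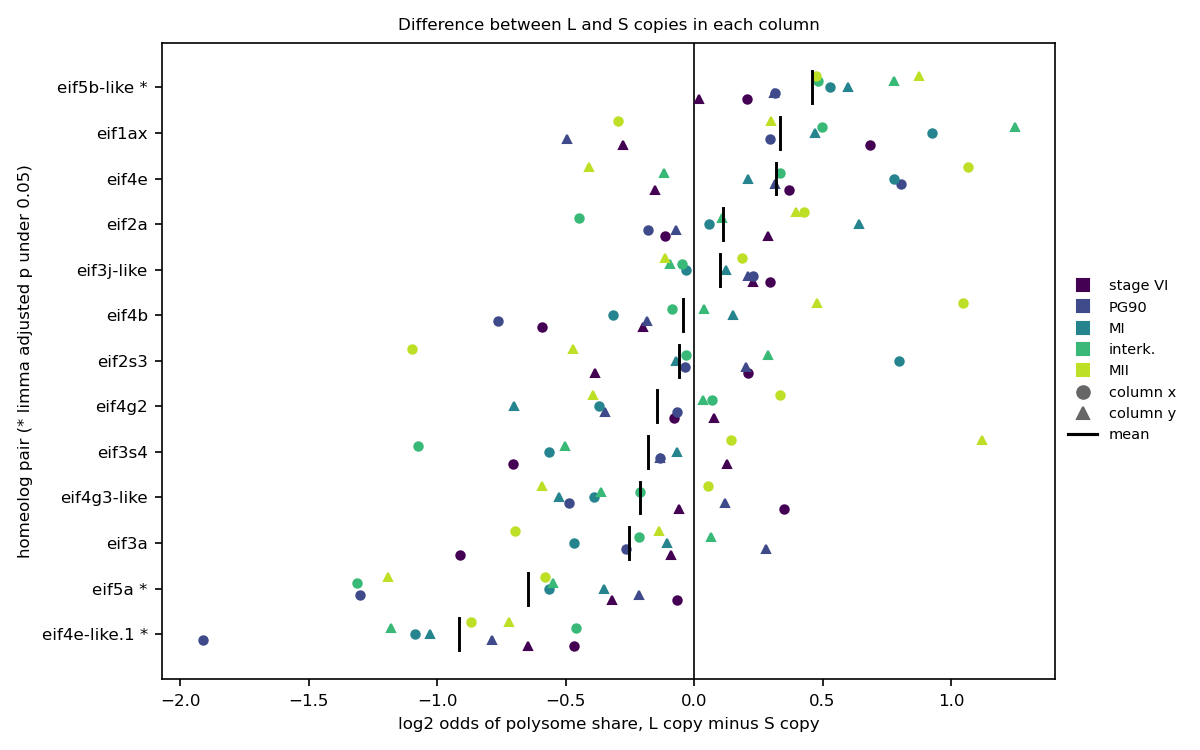
Log2 odds of the polysome share of the L copy minus that of the S copy (x axis) for 13 homeolog pairs (y axis) in each of 10 columns, coloured by stage, with circles for x and triangles for y. Black bars are means; all 10 points of eif4e-like.1 and of eif5a lie below 0 and all 10 of eif5b-like above it.

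The pair with the largest difference was eif4e-like.1. Over the 10 columns its L copy had shares from 0.163 to 0.483 with a median of 0.329, and its S copy from 0.263 to 0.656 with a median of 0.517. The S copy was higher in all 10 columns, by 0.92 in log2 odds on average (L minus S -0.92, SE 0.144, limma adjusted p = 0.00416). In eif5a the L copy had shares from 0.174 to 0.429 with a median of 0.291, against 0.308 to 0.560 with a median of 0.364 for the S copy. The S copy of eif5a was again higher in all 10 columns (L minus S -0.65, SE 0.139, limma adjusted p = 0.00909). For eif5b-like the L copy had shares from 0.261 to 0.454 with a median of 0.357, against 0.202 to 0.411 with a median of 0.296 for the S copy, and it was higher in all 10 columns (L minus S 0.46, SE 0.0904, limma adjusted p = 0.00667). All 3 calls stood with any column left out, with limma adjusted p-values up to 0.0301. A filter on low RNA levels left 1 of these pairs called, because 2 of the 3 pairs have a copy that the table of RNA levels does not list.

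Among the other 10 pairs, the mean differences lay between -0.25 for eif3a and 0.34 for eif1ax. The limma adjusted p of eif1ax was 0.10, with the L copy higher in 7 of 10 columns, and that of eif3a was 0.120, with the L copy lower in 8 of 10. With the column set as a block, eif3a and eif4e also passed in limma (adjusted p = 0.0327 and 0.0331). Since the row eif4e.S may be the eIF4E1b copy, the eif4e rows may not be L and S copies of the same gene. The names of the copies do not always match their chromosome, since the most used poly(A) sites of eif1ax.L and eif4g2.L were listed on chromosomes 2S and 4S. For these pairs the sign of L minus S follows the names in the table.

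RNA levels were given per gene and stage in an unstated unit and, judging by their medians of 44.7 in x and 9.53 in y at stage VI, on a different scale in each column set. They were therefore compared between stages within a column set, as the authors' own ratio columns do. Levels of different genes were set side by side only for markers, for levels near the lowest and in the filter on low RNA level. Fewer cells and less RNA per cell cannot be told apart in such bulk samples. The libraries were made from polyadenylated RNA, so a change in poly(A) tails cannot be told apart from a change in RNA amount either. Of the 70 initiation factor names, 66 had a single row and entered the fit, while eif2s1.L, eif3a.L, eif4e2.L and eif4ebp2.S had several entries and are described by their entries.

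At MII 1 of the 66 mRNAs passed in limma with the column set as a term, the eIF3 subunit eif3h.S, which fell. In that direction 1.33% of all genes passed at an adjusted p under 0.05, and 0.612% in the higher one, where 0 of the 66 did. At an unadjusted p under 0.05 there were 27 of the 66 rows (40.9%), beside 30.4% of all genes. Counted without a test, 26 of 66 rows (39.4%) were lower in both column sets at MII, beside 29.7% of all genes, and 22 (33.3%) were higher in both, beside 38.4%. At least 2-fold lower in both sets were 2 of 66, eif3h.S and eif3m.S (3.03%, beside 3.37% of all genes), and at least 2-fold higher were 0 (beside 0.977%). At PG90, MI and interkinesis 0 of the 66 rows passed in limma, beside 0.00850%, 0.0170% and 0% of all genes called higher and 0% called lower at each of these stages. The rows at an unadjusted p under 0.05 numbered 5 at PG90 (7.58%, beside 3.27% of all genes), 18 at MI (27.3%, beside 14.4%) and 24 at interkinesis (36.4%, beside 23.7%). In both sets by at least 2-fold, 0 of the 66 were lower or higher at MI, beside 0.450% of all genes in each direction, and 0 at interkinesis, beside 1.43% lower and 0.629% higher. With median-centring eif3a passed too, higher, and over all genes 263 were called higher and 324 lower, beside 72 and 157 as deposited. Without the column set as a term 0 members passed at MII, and without any of the 4 columns of the contrast 0 passed as well.

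**Figure D4:**
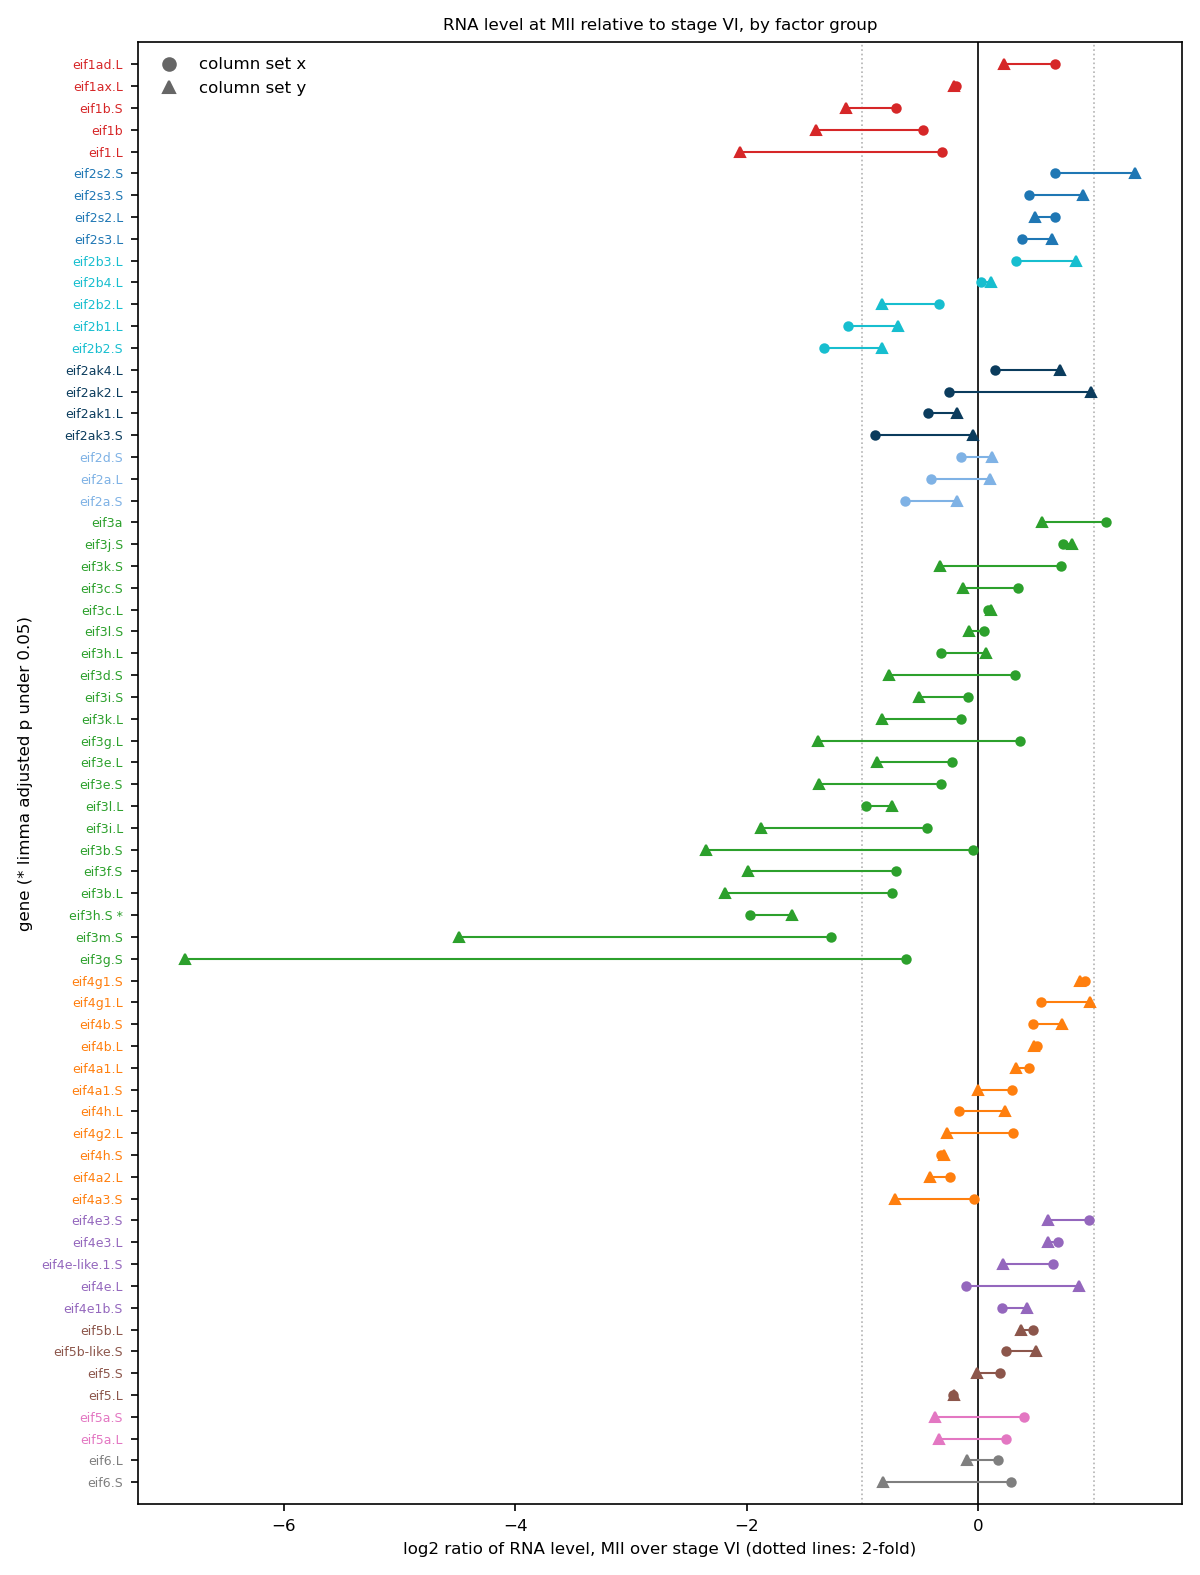
Log2 ratio of the RNA level at MII over that at stage VI (x axis) for 66 initiation factor rows (y axis), coloured by factor, with circles for column set x and triangles for y. Dotted lines mark 2-fold; eif3h.S is past the left line in both sets, and 12 of 21 eif3 rows lie left of 0 in both sets, while the 4 eIF2 subunit rows lie right of it in both.

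Of the eIF3 rows, eif3h.S passed in limma at MII in the lower direction and 0 passed in the higher one. The rows eif3a and eif3j.S were higher in both sets, with limma adjusted p-values of 0.0544 and 0.0602. Of 21 rows, 16 had a mean change below 0 at MII and 16 lay below the change of the median gene, with a median of -0.51, beside 0.07 for all genes, of which 45.2% were below 0. The column sets differed in size, with a median of -0.14 in x and -0.83 in y, and 12 of the 21 rows (57.1%) were lower in both sets, beside 29.7% of all genes. The entries of eif3a.L, which did not enter the fit, were higher at MII, with ratios to stage VI of 1.58 and 1.13 in x and 1.2 and 1.26 in y. For eif3h.S the levels in x were 184 in stage VI, 157 in PG90, 131 in MI, 104.8 in interkinesis and 46.9 in MII oocytes. In y the levels of eif3h.S were 30.3, 28.8, 22.0, 12.9 and 9.94. Both sets were lower at each later stage than at the one before, and the change at MII was -1.79 in log2 (SE 0.203, limma adjusted p = 0.0475), with adjusted p-values of 0.0584 to 0.244 when a column was left out. Its L copy did not move alike, with MII levels 0.799 times those of stage VI in x and 1.05 times in y.

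In several eIF3 rows the 2 column sets gave very different sizes. Some of their MII levels in y were near the lowest level of any gene, 1.0, such as 2.0 for eif3m.S and 2.69 for eif3b.L. Ratios in y that rest on such levels are uncertain. For eif3m.S the level was 41.8 in x and 2.0 in y at MII, against 101 in x and 44.9 in y at stage VI, with a log2 change of -2.88 (SE 0.930, limma adjusted p = 0.103). The level of eif3g.S was 1762 in x and 3.86 in y at MII, against 2720 in x and 446.5 in y at stage VI. Its ratio of MII to stage VI was thus 0.648 in x and 0.00864 in y, and at interkinesis 0.564 in x and 0.0103 in y. This gene is the 1 of the 66 that was at least 2-fold lower in both sets at PG90 (1.52%, beside 0.263% of all genes), with ratios of 0.425 and 0.306. The log2 change of eif3g.S at MII was -3.74 (SE 1.68, limma adjusted p = 0.19). It did not pass the threshold, and the fall was far larger in y than in x. If eif3s4.S is the same gene, as the RefSeq synonym has it, its polysome share was called lower at MII. Its RNA level was lower in both sets there but was not called. The core subunits eif3b.L and eif3b.S had ratios at MII of 0.596 and 0.971 in x and 0.220 and 0.196 in y. The core row listed as eif3a and the loosely bound subunit eif3j.S went the other way, with ratios at MII of 2.15 and 1.46 for eif3a and 1.67 and 1.76 for eif3j.S, in x and y. At PG90 eif3c.L was the 1 row at least 2-fold higher in both sets (1.52%, beside 0.306% of all genes), with levels of 74.5 and 10.4 at PG90, against 33.4 and 3.09 at stage VI. By MI the levels of eif3c.L were 33.9 and 3.84.

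Among the eIF2 subunits, 0 rows passed in limma. All 4 of eif2s2 (the beta subunit) and eif2s3 were higher at MII in both column sets, with a median change of 0.62, beside 38.4% of all genes higher in both sets. For eif2s2.S the levels in x were 336 in stage VI, 375 in PG90, 518 in MI, 459 in interkinesis and 531 in MII oocytes, and in y 86.0, 72.8, 165, 241 and 220. Both sets were above stage VI from MI onward. The ratios of MII to stage VI were 1.58 and 1.41 for eif2s2.L, 1.30 and 1.55 for eif2s3.L, and 1.36 and 1.87 for eif2s3.S, in x and y. The polysome shares of eif2s3.L and eif2s3.S were lower at the same stage. For the alpha subunit, eif2s1.L, 2 entries per set were listed, with ratios of 0.944 and 1.12 in x and 1.37 and 1.70 in y.

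In the cap-binding group 0 of the 5 rows in the fit passed in limma. All 5 had mean changes above 0 at MII, beside 54.8% of all genes, with a median of 0.43, and 4 of the 5 were higher in both sets. eif4e3.S had levels of 126 in x and 25.7 in y at MII, against 64.9 in x and 16.9 in y at stage VI, and eif4e3.L had 71.9 and 13.1 at MII, against 44.4 and 8.62 at stage VI. eif4e1b.S was highest at PG90 in x and at MI in y, with 189 in x at PG90 and 70.4 in y at MI, against 134 in x and 32.9 in y at stage VI. The column sets of eif4e.L did not agree, with ratios at MII of 0.929 in x and 1.83 in y. For eif4e2.L, a cap-binding repressor, the 3 entries in x had ratios of 1.07, 0.830 and 0.602, and the single entry in y one of 0.187. The 2 entries of eif4ebp2.S had ratios of 0.810 and 0.994 in x and 0.690 and 1.0 in y.

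Within the helicase and scaffold group 8 of 11 rows had mean changes above 0 at MII, beside 54.8% of all genes, and 6 of 11 lay above the median gene. The median was 0.14, and 0 passed in limma. eif4g1 codes for the main eIF4G scaffold. The level of eif4g1.S was 209 in x and 51.9 in y at MII, against 110 in x and 28.3 in y at stage VI, and the level of eif4g1.L was 33.4 and 13.1 at MII, against 22.9 and 6.70 at stage VI. At MI the x level of eif4g1.S stood out at 385, 3.49 times stage VI, beside 1.34 times in y. eif4b.L and eif4b.S had ratios at MII of 1.42 and 1.4, and of 1.39 and 1.66. eif4a1.L, the helicase, had ratios of 1.35 and 1.26 at MII, and eif4a1.S of 1.23 and 0.997. The other helicase rows were lower, with ratios of 0.844 and 0.749 for eif4a2.L and of 0.978 and 0.609 for eif4a3.S, whose protein is part of the exon junction complex. eif4g2.L had 1.23 in x and 0.829 in y.

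Of the 5 eif1 rows, 4 were lower at MII in both sets (80.0%, beside 29.7% of all genes), and 0 passed in limma. eif1.L had levels in x of 1237 in stage VI, 1141 in PG90, 745 in MI, 653 in interkinesis and 995 in MII oocytes, and in y of 144, 80.4, 59.1, 39.4 and 34.6. Its RNA level was lower than at stage VI in both sets at all later stages, while its polysome share was higher at interkinesis and MII. Both values rest on the same fraction libraries. eif1b and eif1b.S, which code for an eIF1 relative, had ratios at MII of 0.719 and 0.379, and of 0.611 and 0.454. Those of eif1ax.L were 0.875 and 0.865, and those of eif1ad.L 1.59 and 1.17. Among the eIF2B rows, eif2b1.L had ratios of 0.459 and 0.617 and eif2b2.S of 0.398 and 0.562, while eif2b3.L had 1.25 and 1.80.

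Of the 4 kinase rows, eif2ak4.L had ratios at MII of 1.11 and 1.64, and eif2ak1.L, the kinase known in mammals as the heme-regulated inhibitor, 0.742 and 0.883. eif2ak3.S, known as the kinase of the endoplasmic reticulum (PERK), had 0.540 and 0.971, and eif2ak2.L 0.839 in x and 1.96 in y, in opposite directions. Rows close to their stage VI level in both sets were those of eif5, the factor that triggers GTP hydrolysis by eIF2, with ratios of 0.862 and 0.864 for eif5.L and 1.14 and 0.994 for eif5.S. eif5b.L had 1.39 and 1.29. For eif5a.L and eif5a.S the ratios were 1.18 and 1.32 in x and 0.793 and 0.774 in y, and for eif6.L and eif6.S 1.13 and 1.22 in x and 0.936 and 0.566 in y. Among the partners and regulators, 1 of 50 rows passed in limma at MII, beside 1.33% of all genes lower and 0.612% higher. This row, mcts1.S, codes for a translation re-initiation factor and had ratios of 0.382 and 0.395. The ribosomal protein rows had a median change of -0.95, and 102 of 108 were below 0, beside 45.2% of all genes.

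PAS-seq counted where the transcripts of these genes end in stage VI oocytes. The table gives reads per site over both lanes, so there are no replicates, and intervals below are Wilson 95% intervals that cover counting error only. It listed 318 sites with 6151 reads for 69 initiation factor names, from 4 reads for eif2b2.S and eif4g1.L to 684 for eif1.L. More than 1 site was listed for 55 of the 69 names, or 79.7% (68.8% to 87.5%), beside 64.8% of all 13216 names (63.9% to 65.6%). The initiation factor names also had more reads, with a median of 54, beside 26 for all names. Among names with 22 to 121 reads, 32 of 35 initiation factor names (91.4%) and 86.5% of 6258 names had more than 1 site. With a minimum of 10 reads per site the share was 45.5% of 55 names, beside 40.5% of all names with such a site.

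**Figure D5:**
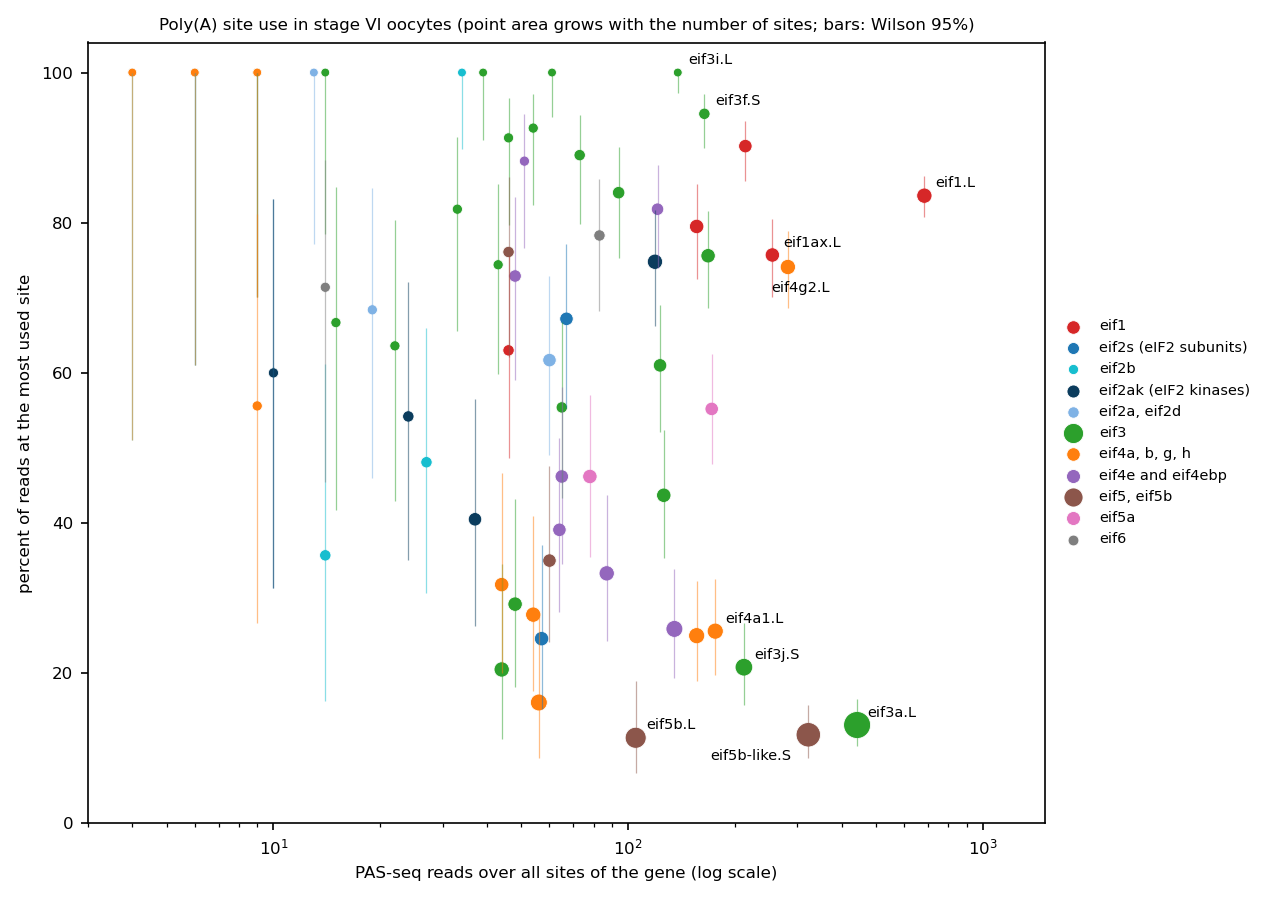
Percent of PAS-seq reads at the most used poly(A) site (y axis, bars are Wilson 95% intervals) by the total reads of the gene (x axis, log scale) for 69 initiation factor names, coloured by factor, with point area growing with the number of sites; some points coincide. eif1.L lies far right at 684 reads and 83.6%, and eif3a.L, eif5b-like.S and eif5b.L lie low with 13.1%, 11.8% and 11.4%.

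Site use ran from a single listed site to more than 20. The table does not name the genome build of its positions. The most used site of eif1.L was at base 1002459 of chromosome 9_10L, on the minus strand, and held 572 of 684 reads, or 83.6% (80.7% to 86.2%), the other 6 sites sharing the rest. The eif1 names had 3 to 7 sites each and a median of 79.5% of reads at the most used one. This compares with 78.7% for the eIF3 names and 72.3% for all names. The lowest of the group was eif1ad.L, with 63% of 46 reads. eif1b.S had 90.2% of 214 reads at its most used site, and eif1ax.L had 75.7% of 255. Among eIF3 rows, all 138 reads of eif3i.L fell on a single site at base 84245407 of chromosome 2L (97.3% to 100%), and eif3f.S had 94.5% of 164 reads (89.9% to 97.1%) at its most used site. eif3l.L, with 61 reads, and eif3l.S, with 39, also had a single site each.

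Other genes had many listed sites. Whether each listed site is a true transcript end was not tested. eif3a.L had 26 sites, the most of any initiation factor name, with 13.1% of 442 reads (10.3% to 16.6%) at the most used, but its sites are listed under 2 loci. eif5b-like.S had 21 sites at 1 locus, which spanned 32080 bases, and the most used held 38 of 322 reads, or 11.8% (8.72% to 15.8%). The second most used, with 37 reads, lay 24451 bases away. eif5b.L had 15 sites over 50611 bases and 11.4% of 105 reads (6.66% to 18.9%) at the most used. Whether sites so far apart lie in the last exon was not analysed here. eif3j.S spread 212 reads over 10 sites with 20.8% at the most used, and eif4g1.S 56 reads over 9 sites with 16.1%.

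The helicase gene eif4a1 had several listed sites in both copies. eif4a1.L had 8 sites within 1782 bases, with 25.6% of 176 reads (19.7% to 32.5%) at the most used and the next, with 36 reads, 189 bases away. eif4a1.S also had 8 sites, within 3047 bases, with 25.0% of 156 reads (18.9% to 32.3%) at the most used. Its next site, with 36 reads, lay 497 bases away. In eif5a.L the 2 most used sites were 66 bases apart, with 95 and 41 of 172 reads. For eif4g2.L, 74.1% of 282 reads (68.7% to 78.9%) lay at the most used of 7 sites.

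For the 3 rows called at MII and their copies, read numbers differed widely. eif2s3.L, lower in polysome share, had 1 site with 9 reads, and its copy eif2s3.S had 2 sites with 10 reads. No site is listed under eif3s4.S, while eif3g.S had 1 site with 14 reads (78.5% to 100%) and eif3g.L had 2 sites with 15 reads. eif3h.S, lower in RNA level, had 65 reads at 3 sites, with 55.4% (43.3% to 66.8%) at the most used and 23 reads at a site 5476 bases away. Its copy eif3h.L had 6 sites within 1289 bases, with 43.7% of 126 reads (35.3% to 52.4%) at the most used and 30 reads at a site 92 bases away. Among the cap-binding group, eif4e.L had 72.9% of 48 reads at the most used of 4 sites and eif4e1b.S 39.1% of 64 at the most used of 5. No sequence or later-stage site table was used here, so changes in site use during maturation and motifs near these sites were not analysed here.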

How the data were processed

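3 kinds of deposited values were used, per the file headers: polysome shares deposited by the authors as a fraction per gene, stage and column set; RNA levels deposited by the authors as a score of unstated unit, with the authors' ratio columns, which equal quotients of these levels; and PAS-seq read counts per poly(A) site deposited by the authors, both lanes in 1 column. Bowtie, Bowtie2, TopHat2 and Cufflinks are named in the submitters' processing notes. Their roles and versions, the genome build, filters and scaling are not given in the sources used here. 5 columns of stage averages were not used.

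The members and lists were chosen with earlier results of these data known. log2(share / (1 - share)) and log2 levels were fitted over the whole tables with limma 3.58.1 in R 4.3.3 (limma-trend, no pseudocount, since no share was 0 and every level was above 1), shares with stage only and levels with stage and column set, with Benjamini-Hochberg adjustment within each contrast and a threshold of 0.05. Both fits were run on simulated data with independent noise in each column. For shares that leaves out the correlation of x and y differences between stages, so the run does not vouch for the calls. Names listed more than a single time (178 of 11943) were left out of the level fit. Shares and levels carry no depth. Named are the members past a threshold, per factor the 2 highest and 2 lowest stage VI shares and the largest rise and fall at MII, and the factors eif4e, eif4g, eif4a, eif4b, eif2s, eif5, eif5a, eif6, eif1, eif1ax and the kinases and repressors; others were added after their values were seen. Of the 83 names, 67 matched a RefSeq symbol and 6 a synonym. The 13 names found in the share table alone have no RNA level or site under that name. Some may be listed there under another name, as eif3s4.S may be eif3g.S and eif4e.S may be eif4e1b.S.

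Alternatives were quantile normalization, median-centring, the 2 stages alone, the column set as a block or without it, constant prior variance, the untransformed share, a pseudocount of 1, a filter on genes below the 0.25 quantile of RNA level, leaving out each column, counting sites with at least 10 reads, and joining sites closer than 50 bases. For shares, the filter also left out every name without a single row of RNA levels, such as eif3s4.S.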

Additional observations from a re-analysis of the deposited data

How the results depend on the processing

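Polysome share at MII minus stage VI gave 284 called genes and 2 called members. Quantile normalization gave 54 and 1, median-centring 127 and 0, the column-set block 1654 and 11, and a constant prior variance 139 and 1. The filter on low RNA level kept only 3140 genes and 26 members. Of these, 159 genes (5.06%) and 2 members (7.69%) were called. Leaving out a column gave 0 to 106 genes and 0 to 2 members. The median change of the members was -0.15 with quantile normalization and 0.030 with median-centring, which by construction take out the shift of all genes, and -0.82 to -0.37 with a column left out. At PG90 that median was -0.049, -0.034 and, with the filter on low RNA level, -0.026, and -0.26 to 0.050 with a column left out. Rows with both MII columns lower than stage VI numbered 9 after median-centring. Rows with both higher numbered 6 with quantile normalization and 7 after median-centring. At interkinesis the lower rows were 10 and 12 and the higher rows 8 after median-centring. Under these settings such counts were not taken over all genes. With a column left out, 0 to 3 genes were called at interkinesis.

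For RNA levels the fit with no replicate block gave 0 called genes at PG90, MI and MII and 0 members at MII. At MII, median-centring gave 587 genes and 2 members, a pseudocount of 1 gave 593 genes, the filter gave 638 genes and 3 members, and leaving out a column gave 0 to 47 genes and 0 members. The pseudocount gave 2 genes at PG90 and the filter 1 gene at MI. A column left out gave 1 to 12 genes at PG90, 2 to 9 at MI and 0 to 5 at interkinesis, and medians of the members of -0.29 to -0.12 at interkinesis and -0.18 to 0.0072 at MII. The interkinesis median was -0.093 after median-centring and -0.13 with the filter. A 1.5-fold threshold in place of 2-fold gave 2 lower and 1 higher members (MI), 8 and 2 (interkinesis) and 9 and 5 (MII). The share of all genes past 1.5-fold was not computed, so these counts do not set the members apart from other genes.

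The homeolog pairs called were 422, with 231 under the filter and 238 to 408 with a column left out. Member pairs called were 5 with the block and 1 with the filter. The filter leaves out pairs with a copy that has no RNA level, so it tested fewer pairs. With a minimum of 10 reads per site, 45.5% of members had more than 1 site and the median at the most used site was 100%. Of 299 recomputed values of single genes, 268 kept direction and call, 13 gained and 15 lost the call, and 3 reversed, each with a column left out: eif4e.L ranged from -0.16 to 0.27, eif1ax.L from -0.38 to 1.12 and eif4g2.S from -0.072 to 0.95. The cause of these moves was not tested. Most of the recomputed genes were picked for their values in these same data, so a kept direction is no separate support. Rows called in neither fit also count as having kept the call. The column suffixes are no replicate numbers, and the paired (block) results rest on 2 pairs per contrast. Differences of x and y correlated between stages at 0.173 to 0.451 for shares and 0.655 to 0.738 for levels over 10 pairs of stages. With 2 columns per stage and no known depth, moderate changes could not be resolved.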
